A study of Brassica napus with 18 samples.

Results

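Transcripts of bnagrp3 mutant oilseed rape (Brassica napus) were compared between plants held in 200 mM NaCl for 8 h and plants held in it for 4 h. The comparison takes 6 of the 18 RNA-seq libraries of the series, chosen by their labels, with 3 libraries at each time. All 6 come from the same mutant line, number 2 in the design text, so the genotype is the same on both sides. Poly(A) RNA was taken from the aboveground part after 3 weeks of growth in Hoagland's nutrient solution. The groups set beside the comparison are the bnagrp3 mock libraries and the wild type (WT) libraries at 4 h and 8 h of 200 mM NaCl, 3 libraries each. Mock columns are headed 0 h, so neither time has a mock taken at the same hour of the day, and hours in salt and hours of the day cannot be told apart. The labels do not say which copies of GRP3 are mutated or whether the replicates were different plants, and the p-values below therefore describe library-to-library spread, which may be technical.

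Salt reaches a shoot as a loss of water supply and later as sodium carried up in the xylem. The shoot answers with abscisic acid (ABA), with protective proteins such as dehydrins, with changed water channels and cell walls, and with less photosynthesis and growth. Jasmonate, a hormone of wounding and stress, is made in chloroplasts and switches on defence genes, among them those for its own synthesis and for the JAZ (TIFY) repressors that turn the signal off again. GRP3 proteins are small glycine-rich proteins of the cell wall, in Arabidopsis a partner of the wall-associated kinase WAK1. Gene roles given here are those known from Arabidopsis thaliana, from which most gene names in the table were taken. B. napus carries an A and a C subgenome, which the gene identifiers name, and most genes are present in several near-identical copies whose reads the submitters' counting may have divided.

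Values are TPM, transcript abundances scaled for gene length and for the library total, and read depth is unknown. A log2 change is that of TPM + 1, 8 h minus 4 h, which understates the change of weakly expressed genes. Each adjusted p comes from limma with Benjamini-Hochberg adjustment over 57923 tested genes, and a gene is called at an adjusted p under 0.05. The 6 libraries held 64252 to 65064 genes above 0, the lowest correlation within a group was 0.952 at 4 h and 0.954 at 8 h, and the times separated on the first principal component (37.7% of the variance), with the 4 h libraries at -64.88 to -45.93 and the 8 h libraries at 47.17 to 62.41. At 4 h replicate 1 and replicate 2 lay farthest apart on the second component (60.42 and -61.26). WT libraries were less alike, with a lowest correlation of 0.888 at 4 h, between replicates 1 and 2. They also differed in the level of some transcripts that every bnagrp3 library held. A set of 326 genes was taken, after values were seen, that reached 5 TPM in each of the 9 libraries of bnagrp3 but did not exceed 0.2 TPM in at least 2 of the 9 of WT, so that low WT values partly follow from the choice. Set against the bnagrp3 mean of the same time, the median level of these genes in WT replicates 1, 2 and 3 was 0, 0.67 and 0.233 at 4 h and 0.168, 0 and 0.369 at 8 h. In the WT mock libraries, otherwise used only in the fit, this level was 0.231, 0.254 and 0.214. WT 4 h replicate 2 also correlated more closely with the bnagrp3 libraries of its time (0.893 to 0.896) than with WT 4 h replicate 1 (0.888). WT mock replicate 2 correlated at 0.891 to 0.894 with bnagrp3 mock and at 0.941 to 0.955 within WT mock. WT 8 h replicate 3 was closer to its own group (0.918 to 0.944) than to bnagrp3 (0.881 to 0.885). WT 4 h replicate 2 and WT 8 h replicate 3 are treated as in doubt. Whether they or the libraries at 0 are the unusual ones was not tested. The groups' counts, shares and tests that use WT are given with and without that pair. Green leaf markers (chlorophyll a-b binding proteins and Rubisco) made up 91118 to 94418 TPM at 4 h and 78282 to 87134 TPM at 8 h, with 5 of 87 tested markers called higher and 11 lower, and reached 11036 TPM in a gene. Xylem markers summed to 325 to 399.8 TPM at 4 h and 404 to 503 TPM at 8 h, with 7 of 27 called higher and none lower. Root markers lay at 63 to 79.4 and 73.2 to 77.2 TPM, with 3 of 13 tested called higher, and flower and seed markers at 13.1 to 14.2 and 12 to 14.8 TPM with 25 of 41 listed at 0 in all 6 libraries. The defining root gene WOX5 and the meristem gene CLV3 were listed at 0 in all 6. The part of these markers in the results was not tested, and in whole shoots fewer cells of a type and less RNA per cell cannot be told apart.

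Between 4 h and 8 h of salt, 8863 of 57923 genes were called (15.3%). Of these 5940 were higher at 8 h (10.3% of the genes tested) and 2923 were lower (5.05%). At least 1 log2 unit of change was found for 629 of the genes called higher and 681 of those called lower, or 407 and 848 with median-of-ratios rescaling and 424 and 771 with quantile normalisation. The 3 libraries at 8 h all lay above the 3 at 4 h for 5876 of the genes called higher, and all below for 2888 of those called lower. The excess of small rises depended on scaling. The median log2 change of all genes was 0.071, and when libraries were rescaled so that this median was 0, the share of calls that were higher went from 67% to 45.6% (median-of-ratios, 3529 higher and 4215 lower) or 52.5% (quantile normalisation, 3896 and 3530). Counts in gene lists also moved when 1 of the 6 libraries was left out. Where such a fit moved a list's count of 5 or more by over 1.5 times, the range over the 6 fits is given beside the count with the libraries concerned. Genes of the C subgenome were called higher in 11.5% and lower in 5.11% of cases, and genes of the A subgenome in 10.2% and 5.41%.

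Jasmonate genes that were called were mainly lower at 8 h. Of 40 tested genes of jasmonate synthesis 15 were called lower, 2 higher and 23 not, against 5.05% lower and 10.3% higher over all genes, with a median log2 change of -0.22. Of 49 TIFY repressor genes 19 were lower, none was higher and 30 were not called (median -0.60). Several families were lower in most or all copies: all 4 tested copies of AOC2 (allene oxide cyclase), both of CYP74A (allene oxide synthase, the step before it), 9 of 12 of LOX2 (the lipoxygenase that starts the pathway) and 5 of 6 of TIFY7. Summed over its copies, LOX2 stood at 1099.8, 1562 and 1417 TPM in the 3 libraries at 4 h and at 475, 499.6 and 443 TPM at 8 h. AOC2 summed to 17.7, 45.9 and 31.8 TPM at 4 h and 4.97, 4.11 and 6.37 TPM at 8 h. CYP74A summed to 63.4, 122 and 114 TPM at 4 h and 30.2, 32.4 and 31.9 TPM at 8 h. In each of the 3 families the lowest 4 h library lay above the highest 8 h library, and among the 4 h libraries replicate 1 was the lowest.

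The single genes show the size of the step. AOC2 (BnaC07G0290700ZS) was listed at 0, 0 and 0.25 TPM in mock, reached 5.45, 19.7 and 12.6 TPM at 4 h and stood at 0.38, 0.94 and 1.61 TPM at 8 h, a log2 change of -2.67 (SE 0.45, adjusted p = 0.00153). TIFY7 (BnaC02G0251900ZS) went from 75.4, 107 and 97.3 TPM to 24, 23.8 and 27.6 TPM (-1.84, SE 0.29, adjusted p = 0.000965), with 31 to 36.4 TPM in mock. The 8 h libraries of this repressor gene thus lay below its mock libraries. CORI3 (a gene model of the submitters placed on no chromosome), a cystine lyase gene known to respond to jasmonate, went from 445, 909 and 816 TPM to 48.4, 55.3 and 44.8 TPM (-3.78, SE 0.40, adjusted p = 7.06e-05), with 15.6 to 17.8 TPM in mock. It was among the 10 largest falls of all genes with a mean of at least 10 TPM and a protein name. The 2 genes called higher were a copy of OPR1, a 12-oxophytodienoate reductase (1 of 4 copies), and AOC3 (BnaA09G0228100ZS), the latter at 12.7, 8.63 and 9.99 TPM against 7.83, 5.01 and 5.17 TPM (0.71, SE 0.22, adjusted p = 0.0451), a call kept in 5 of 15 alternative settings. AOC2, TIFY7 and CORI3 were called in all 15.

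Among genes for making glucosinolates, the sulfur-rich defence compounds of the cabbage family, those called were also mainly lower. Of 65 tested synthesis genes 21 were lower, 1 was higher and 43 were not called (median -0.43). Those that fell included genes of the branch that starts from tryptophan: 4 of 6 copies of CYP79B1, both of CYP83B1, both of the sulfotransferase SOT16 and all 3 of the methyltransferase IGMT5. CYP83B1 summed to 161, 173 and 171 TPM at 4 h and 50.2, 55.3 and 40.7 TPM at 8 h. CYP79B1 (BnaC07G0541500ZS) went from 6.87, 15.2 and 13.5 TPM to 0.72, 1.21 and 0.59 TPM (-2.75, SE 0.44, adjusted p = 0.00106). MAM1 (an unplaced gene model), which lengthens the side chain of methionine-derived glucosinolates, went from 21.3, 29.9 and 24.9 TPM to 4.26, 4.81 and 4.77 TPM (-2.22, SE 0.32, adjusted p = 0.000532). The 3 libraries at 8 h lay below the 3 at 4 h in each, and 4 h replicate 1 was again the lowest of its group. SUR1 (BnaA03G0504500ZS), a later enzyme of the pathway, was the gene called higher, from 3.11, 3.82 and 3.83 TPM to 4.99, 6.2 and 5.64 TPM (0.53, adjusted p = 0.0026), while 2 of the 6 SUR1 copies were lower.

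Sulfate assimilation genes were called in both directions. Over the list 16 of 76 tested genes were higher and 13 lower (median 0.08), a balance that turned to 14 higher and 19 lower with median-of-ratios rescaling. The 13 became 8 without 4 h replicate 2 or 8 h replicate 2. In the reductive branch, which leads to cysteine, both copies of APR1 and all 4 of APR3 (adenylylsulfate reductases) were higher. Both copies of APS3 (ATP sulfurylase), which acts before the branches part, were also higher. Adenylylsulfate kinase genes, which feed sulfate to glucosinolates, were lower in 3 of 4 copies of APK1 and 3 of 4 of APK2. APR3 summed to 21.5, 28.8 and 33 TPM at 4 h and 62.7, 72.8 and 69 TPM at 8 h. APK1 summed to 53.8, 86 and 87 TPM at 4 h and 34.8, 36.8 and 30.1 TPM at 8 h. The times did not overlap in either family. APR2 (BnaC04G0240200ZS), the most abundant APR gene named here, went from 36.2, 42.5 and 45.8 TPM to 91.6, 97.7 and 91.6 TPM (1.16, SE 0.12, adjusted p = 7.54e-05), above its mock libraries at 52.1 to 64.7 TPM. APK1 (BnaA03G0393500ZS) went from 10.2, 14.3 and 14.4 TPM to 4.99, 3.03 and 3.7 TPM (-1.51, SE 0.25, adjusted p = 0.00135).

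**Figure D1:**
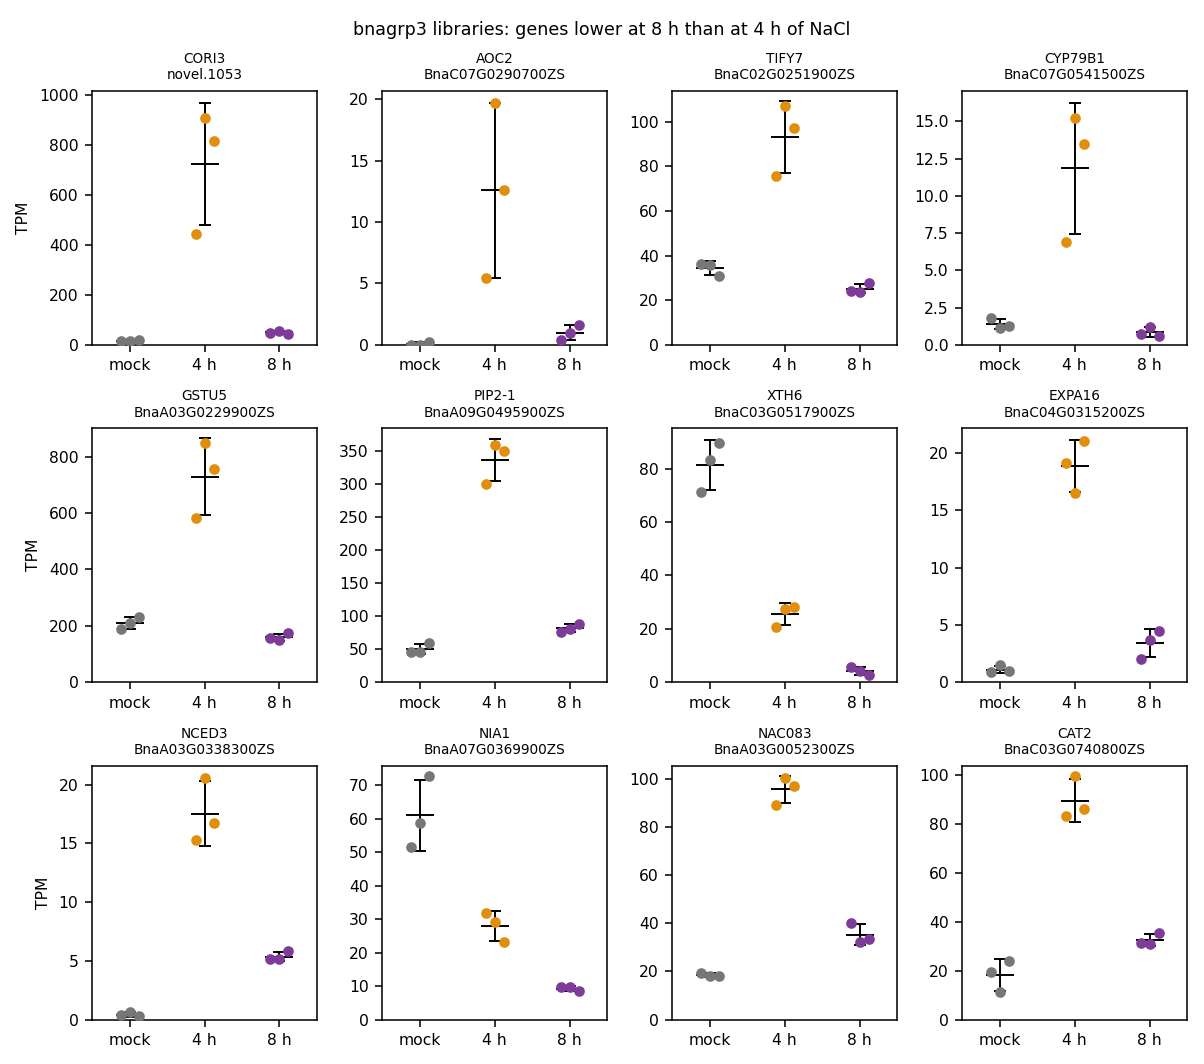
TPM in the 9 bnagrp3 libraries for 12 genes called lower at 8 h than at 4 h, with a linear axis from 0 in each panel. Points are libraries, and bars give the mean ± SD of 3. In 10 of the 12 panels the 4 h libraries are the highest, as in CORI3 at 445 to 909 TPM, while XTH6 and NIA1 are highest in mock.

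Detoxifying and hydrogen peroxide genes moved in groups. Tau glutathione S-transferases, which join glutathione to reactive compounds, were lower in 17 of 58 tested genes and higher in 1 (median -0.13). All 5 copies of GSTU13, all 3 of GSTU17 and 4 of 6 of GSTU5 were lower. GSTU5 (BnaA03G0229900ZS) went from 581, 849 and 756 TPM at 4 h to 156, 148 and 174 TPM at 8 h (-2.17, SE 0.18, adjusted p = 1.5e-05), with 188 to 233 TPM in mock. Superoxide dismutases, catalases and ascorbate peroxidases were higher in 18 of 63 tested genes and lower in 8 (median 0.11), with 11 higher without 4 h replicate 2. FSD1 and FSD3, iron superoxide dismutases of the chloroplast, were higher in 3 of 3 and 3 of 4 copies, and the cytosolic ascorbate peroxidase APX1 in 3 of 4. Catalase genes divided: 5 of 8 copies of CAT3 were higher and 4 of 9 of CAT2 lower. CAT3 summed to 3891, 3360.0 and 3737 TPM at 4 h and 4620.1, 4556 and 4332 TPM at 8 h. CAT2 summed to 528, 585 and 528 TPM at 4 h and 364, 367 and 385 TPM at 8 h. FSD1 (BnaC07G0462000ZS) went from 20.6, 19 and 30.2 TPM to 69, 87.9 and 75.1 TPM (1.71, SE 0.31, adjusted p = 0.00225). CAT2 (BnaC03G0740800ZS) went from 83.1, 99.4 and 85.9 TPM to 31.2, 30.9 and 35.5 TPM (-1.43, SE 0.19, adjusted p = 0.000285). CCS (BnaC09G0137500ZS), the copper chaperone that loads copper/zinc superoxide dismutases, was among the 10 largest rises, from 21.9, 31.8 and 50.8 TPM to 170.3, 183 and 153 TPM (2.32, SE 0.37, adjusted p = 0.0011). Its mock libraries stood at 42.5 to 75.1 TPM, above 2 of its 3 libraries at 4 h.

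Aquaporins of the plasma membrane (PIP), the main water channels into and out of cells, had the highest share of lower calls among the lists with at least 15 tested genes. Of 45 tested genes 19 were lower, 3 higher and 23 not called (median -0.32). The list summed to 2579 to 2889 TPM in mock, to 4323, 4729 and 4677 TPM at 4 h and to 2724, 2628 and 2767 TPM at 8 h, so that the 8 h libraries lay within the range of mock. PIP2-2 was lower in 7 of 8 copies, PIP1-2 in 4 of 6 and PIP2-1 in 2 of 3. PIP2-1 (BnaA09G0495900ZS) went from 300.1, 359 and 349 TPM at 4 h to 76.2, 80.3 and 88.7 TPM at 8 h (-2.02, SE 0.11, adjusted p = 1.45e-06). PIP2-2 (BnaA05G0081400ZS) went from 144, 175 and 178 TPM to 40.2, 34.6 and 37.7 TPM (-2.11, SE 0.23, adjusted p = 9.53e-05). PIP2-6 was the exception in which both tested copies were higher, BnaC03G0223000ZS from 19.9, 19.9 and 21.2 TPM to 33.7, 34.1 and 42.4 TPM (0.82, SE 0.16, adjusted p = 0.00304).

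Aquaporins of the vacuole membrane (TIP) took another course. Of 21 tested genes 6 were lower and 2 higher, and the median of 0.10 has the opposite sign to the balance of calls. With median-of-ratios rescaling 6 were lower and none higher. The TIP list summed to 1878 to 2114 TPM in mock, 961 to 1062 TPM at 4 h and 664 to 747 TPM at 8 h. TIP1-1 (BnaA04G0236300ZS) stood at 204 to 280.1 TPM in mock, at 77.5, 92.5 and 91.2 TPM at 4 h and at 31.7, 27.1 and 28.6 TPM at 8 h (-1.55, SE 0.17, adjusted p = 9.53e-05). Both genes called higher carry the name TIP3-2 and had identical values in every library (5.08, 4.18 and 3.94 TPM at 4 h and 8.21, 6.49 and 5.78 TPM at 8 h), so they give 1 measurement under 2 identifiers.

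**Figure D2:**
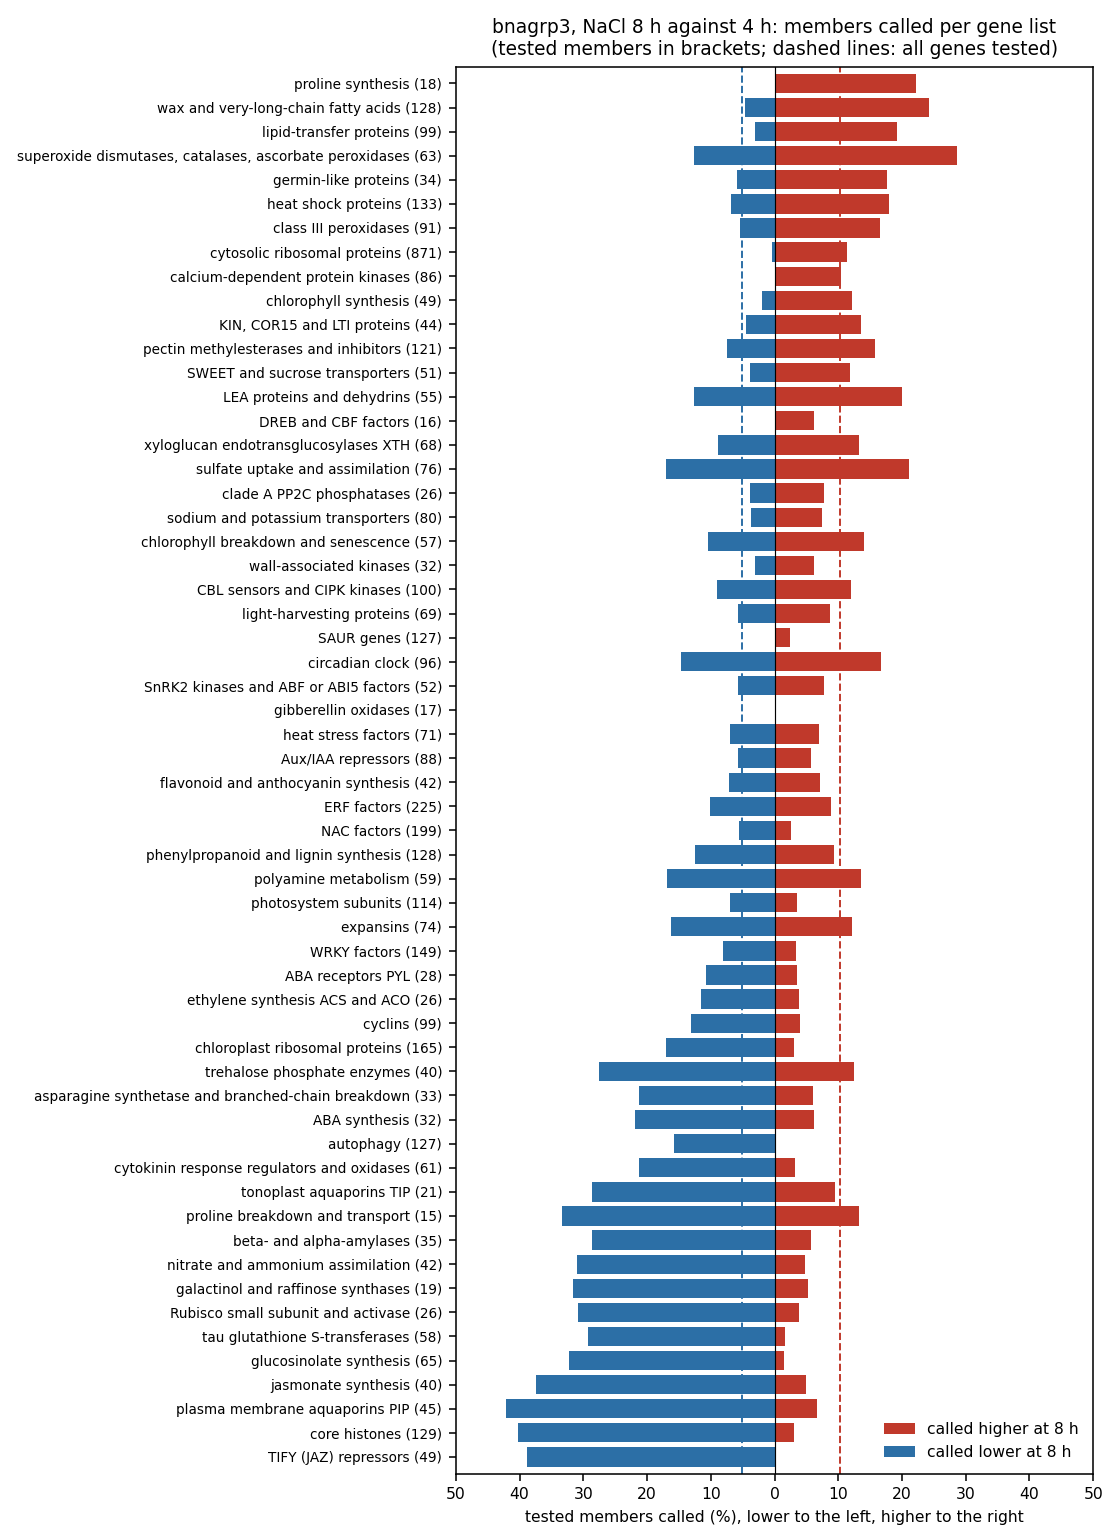
Percentage of tested members called lower (left) and higher (right) at 8 h in each gene list with at least 15 tested members, in order of the share higher minus the share lower. Dashed lines mark 5.05% lower and 10.3% higher over all genes tested. Plasma membrane aquaporins, core histones, TIFY repressors and jasmonate synthesis reach farthest to the left, at 42.2%, 40.3%, 38.8% and 37.5% lower.

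ABA genes did not move as a block. Of 32 tested synthesis genes 7 were lower and 2 higher (median -0.01), or 8 and none with median-of-ratios rescaling. These shares were 21.9% lower and 6.25% higher, beside 5.05% and 10.3% over all genes. All 4 copies of ZEP (zeaxanthin epoxidase, an early step) and 2 of 6 of NCED3 (the rate-limiting dioxygenase) were lower. NCED3 (BnaA03G0338300ZS) stood at 0.28 to 0.66 TPM in mock, at 15.3, 20.6 and 16.7 TPM at 4 h and at 5.16, 5.12 and 5.83 TPM at 8 h (-1.53, SE 0.14, adjusted p = 2.44e-05). Summed over its 6 copies NCED3 changed less, from 209, 208 and 197 TPM to 164, 166 and 171 TPM. Among CYP707A genes, whose enzymes break ABA down, 2 of 11 were higher, CYP707A4 (BnaC05G0402500ZS) from 3.76, 3.16 and 3.77 TPM to 5.69, 6.26 and 5.64 TPM (0.59, adjusted p = 0.00075). ABA receptor genes were lower in 3 of 28 and higher in 1 (10.7% and 3.57%, median -0.23), or 3 and none with median-of-ratios rescaling. PYL7 (BnaA03G0276800ZS) went from 58.4, 63.7 and 71.7 TPM to 31.4, 26.3 and 33.9 TPM (-1.06, SE 0.23, adjusted p = 0.0066). Of 26 genes for clade A PP2C phosphatases, which hold the ABA signal down, 23 were not called, 2 were higher and 1 was lower. These shares, 7.69% higher and 3.85% lower, lay under those of all genes. Median-of-ratios rescaling gave 1 higher and 4 lower. ABI1 was not called in any of 7 copies (498, 504 and 493 TPM summed at 4 h and 461, 494 and 482 TPM at 8 h).

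Dehydrins and other late embryogenesis abundant (LEA) proteins, which protect membranes and proteins as cells dry, divided by gene. Of 55 tested genes 11 were higher and 7 lower (median 0.02), or 9 higher and 10 lower with median-of-ratios rescaling. RAB18 had the largest sum of the list at 8 h but not at 4 h. Its 4 tested copies summed to 5327, 4354 and 4012 TPM at 4 h and to 12649, 14095 and 14814 TPM at 8 h. Of these copies 2 were called. ERD10 summed to 7976, 7243 and 6887 TPM at 4 h and 5989.7, 6094 and 6813 TPM at 8 h, with 1 of 6 copies lower. ERD14 also lay above RAB18 at 4 h, at 6498, 6341 and 6646 TPM. RAB18 (BnaC09G0101000ZS) went from 22.4 to 27.9 TPM in mock to 1484, 1254 and 1178 TPM at 4 h and 4073, 4590.1 and 4833 TPM at 8 h (1.79, SE 0.17, adjusted p = 2.87e-05). LEA29 (BnaC03G0413400ZS), listed at 0 in mock, went from 3.06, 2.42 and 2.54 TPM to 10.2, 10.2 and 10.8 TPM (1.64, SE 0.15, adjusted p = 2.39e-05). Summed over its 4 copies, of which only this one was called, LEA29 stood higher at 4 h, at 423, 403 and 369 TPM against 305, 350.3 and 349 TPM at 8 h. Another dehydrin gene, ERD14, went the other way in 3 of 6 copies. ERD14 (BnaA02G0219900ZS) stood at 163 to 170.1 TPM in mock, at 566, 586 and 633 TPM at 4 h and at 329, 267 and 319 TPM at 8 h (-0.97, SE 0.17, adjusted p = 0.00203). LTI65, an ABA-responsive gene also known as RD29B, was higher in 5 of 12 copies, BnaC02G0187400ZS from 53.4, 58.9 and 49.9 TPM to 106, 118 and 121 TPM (1.07, SE 0.16, adjusted p = 0.000624).

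Compatible solutes, the small molecules that hold water in salt-stressed cells, also differed by pathway. P5CSA, the main enzyme gene of proline synthesis, stood at 1658, 1591 and 1521 TPM at 4 h and 1610.1, 1573 and 1705 TPM at 8 h over 6 copies, of which none was called. Its sister gene P5CSB was higher in 2 of 4 copies and the last enzyme, PROC1, in 2 of 8, which made 4 of 18 synthesis genes higher and none lower. Among genes of proline breakdown and transport 5 of 15 were lower and 2 higher (median -0.42), and leaving out any of the 6 libraries gave 2 or 3 lower. POX1, the proline dehydrogenase that starts breakdown, was lower in 2 of 4 copies and summed to 12.3, 10.9 and 12.7 TPM at 4 h and 3.85, 2.74 and 6.12 TPM at 8 h, while both ALDH12A1 genes, for the next step, were higher. Galactinol and raffinose synthases were lower in 6 of 19 genes and higher in 1 (median -0.22, and 0 without the filter on low values), with 3 lower without 4 h replicate 1 or 8 h replicate 1 or 2. GOLS2 (BnaA09G0178900ZS) went from 152, 136 and 134 TPM to 79.3, 82.9 and 91.1 TPM (-0.73, SE 0.15, adjusted p = 0.00433), and stood at 2.86 to 4.87 TPM in mock.

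Sugar genes also changed. Trehalose phosphate enzymes were lower in 11 of 40 genes and higher in 5 (median -0.06), and the genes that were lower included members of the class without known synthase activity: both copies of TPS8, TPS9 and TPS11 and 2 of 5 of TPS10. TPS5, of the same class, went the other way, with both copies higher (4.38, 4.03 and 3.84 TPM summed at 4 h and 6.9, 8.26 and 7.37 TPM at 8 h). The 5 genes called higher in the list became 3 without 8 h replicate 2. TPS9 summed to 151, 138 and 141 TPM at 4 h and 73.5, 62.6 and 76.7 TPM at 8 h. Amylase genes were lower in 10 of 35 and higher in 2 (median -0.12), and 6 were lower without 8 h replicate 2. The 10 included 4 of 6 copies of BAM9 and 2 of 4 of BAM4, both described as inactive beta-amylases. BAM1, the beta-amylase tied to starch breakdown under osmotic stress, was lower in 3 of 4 copies and summed to 188, 195 and 186 TPM at 4 h and 103, 107 and 111 TPM at 8 h. BAM3, the main beta-amylase of starch breakdown at night, was higher in 2 of 4 copies, BnaC07G0413500ZS from 5.25, 5.44 and 4.74 TPM to 10.8, 9.59 and 10 TPM (0.86, SE 0.13, adjusted p = 0.000841). The sucrose exporter SWEET15 was higher in 2 of 6 copies and summed to 268, 288 and 264 TPM at 4 h and 426, 435 and 384 TPM at 8 h.

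**Figure D3:**
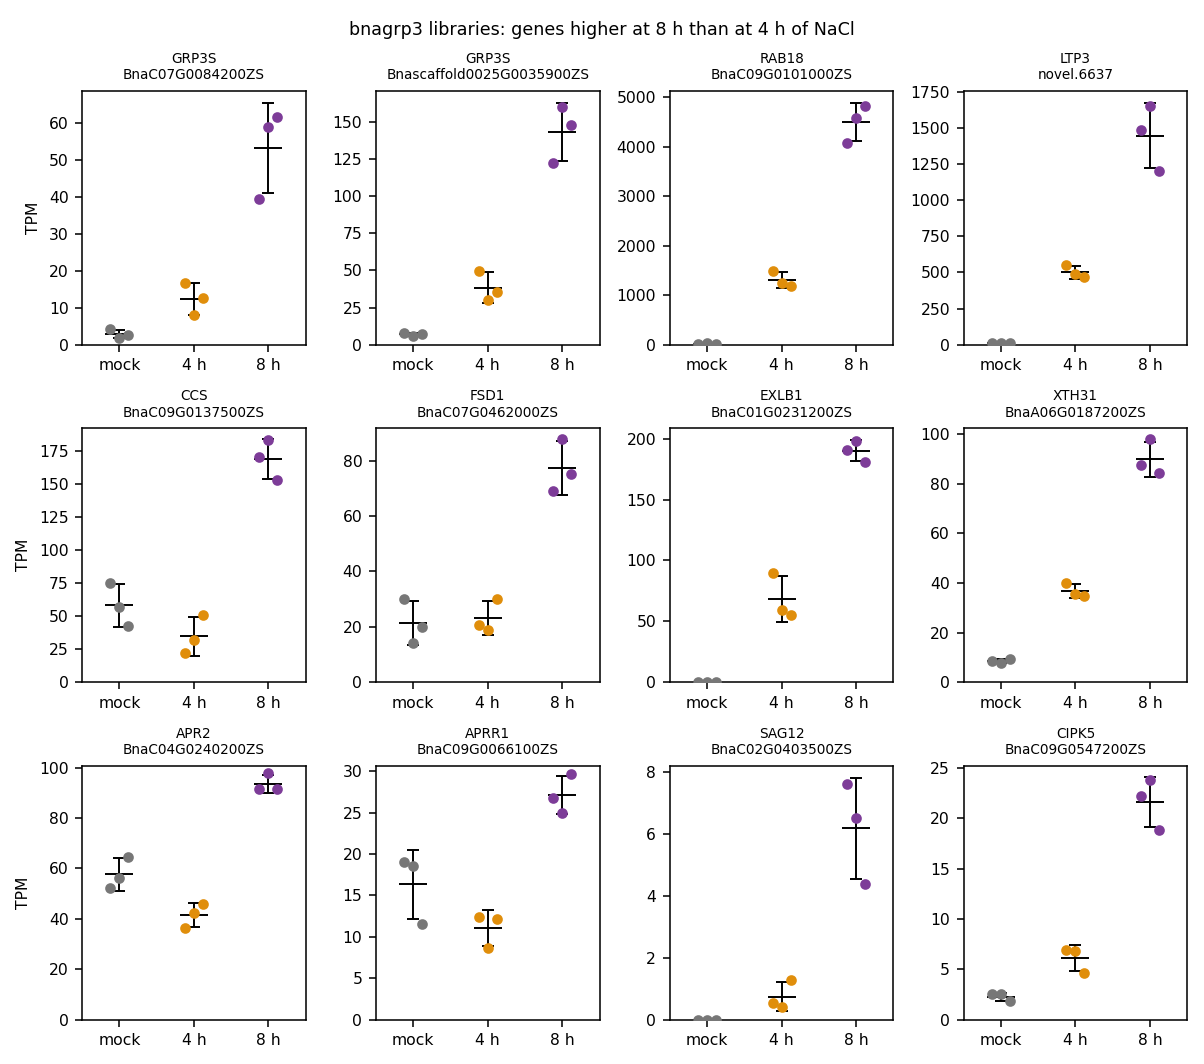
TPM in the 9 bnagrp3 libraries for 12 genes called higher at 8 h than at 4 h, drawn as for the genes that fell (points are libraries, bars the mean ± SD of 3, linear axes from 0). RAB18, LTP3 and EXLB1 are lowest in mock and highest at 8 h, at 4073 to 4833 TPM in RAB18, while CCS, FSD1, APR2 and APRR1 lie at 4 h near or below mock.

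Cell wall genes changed in both directions, gene by gene. The 13 GRP3 genes of the table included 11 that passed the filter on low values, of which 6 were higher at 8 h, none was lower and 5 were not called (median 1.05). The called genes lay on C03, C07, A07, a scaffold and an unplaced model. BnaC07G0084200ZS went from 16.7, 8.11 and 12.6 TPM to 39.3, 58.9 and 61.6 TPM (2.04, SE 0.44, adjusted p = 0.00648). Bnascaffold0025G0035900ZS went from 49.9, 29.9 and 35.3 TPM to 122, 160.2 and 148 TPM (1.90, SE 0.36, adjusted p = 0.0033). In WT replicates 1 to 3 this scaffold copy stood at 4.14, 1.3 and 6.56 TPM at 4 h and 5.5, 3.58 and 4.07 TPM at 8 h. The change was 1.65 larger in bnagrp3 than in WT on the log2 scale (SE 0.52, adjusted p = 0.419), or 2.09 without the pair in doubt (SE 0.44, adjusted p = 0.141). The most abundant copies, on A03 and C03, were not called: BnaC03G0480300ZS stood at 2339, 2202 and 2272 TPM and at 2883, 3067 and 2907 TPM (0.38, adjusted p = 0.0877), and BnaA03G0387800ZS at 1283, 1265 and 1319 TPM and at 1613, 1774 and 1652 TPM (0.38, adjusted p = 0.097). The times did not overlap in either copy. With WT 4 h replicate 2 and WT 8 h replicate 3 left out of the fit, 8 of the 11 genes were called higher in bnagrp3 and 3, in place of 6, in WT.

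GRP3 copies with levels far below WT in the mutant were also called higher, at their low level. BnaA07G0050000ZS stood at 4, 3.22 and 3.96 TPM at 4 h and 6.24, 9.43 and 11.2 TPM at 8 h (1.05, SE 0.23, adjusted p = 0.00657), against 56.5, 97 and 71.6 TPM and 107, 137 and 120.4 TPM in WT. BnaC07G0084100ZS stood at 0.8, 1.14 and 0.79 TPM and at 5.42, 5.95 and 5.8 TPM (1.82, SE 0.16, adjusted p = 2.13e-05), against 12.8, 14.1 and 13.1 TPM and 30, 22 and 39.5 TPM in WT. An unplaced model was listed at 0.59, 0 and 1.16 TPM and at 1.19, 4.39 and 4.51 TPM (1.41, SE 0.38, adjusted p = 0.0227, called in 9 of 15 settings), against 695, 1339 and 1148 TPM and 2241, 1429 and 2799 TPM in WT. In each of these copies all WT libraries, with or without the pair in doubt, lay above all bnagrp3 libraries of the same time. No GRP3 gene was called for a genotype difference in its change from 4 h to 8 h. Wall-associated kinase genes, the class of the known GRP3 partner, were called higher in 2 of 32 cases and lower in 1. These shares, 6.25% and 3.12%, lay under the 10.3% and 5.05% of all genes. Median-of-ratios rescaling gave 1 higher and 3 lower. WAKL20 (BnaC09G0620100ZS) went from 9.03, 9.43 and 9.91 TPM to 18.9, 19.4 and 15.5 TPM (0.85, SE 0.17, adjusted p = 0.00379).

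Expansins, which loosen walls, were higher in 9 of 74 tested genes and lower in 12 (median 0.00). These shares were 12.2% and 16.2%, beside 10.3% and 5.05% over all genes. All 4 copies of EXPA16 and both of EXPA10 were lower, and 4 of 6 copies of EXLB1 and both of EXPA11 were higher. EXPA16 (BnaC04G0315200ZS) stood at 0.85 to 1.47 TPM in mock, at 19.1, 16.5 and 21 TPM at 4 h and at 2.04, 3.67 and 4.48 TPM at 8 h (-2.21, SE 0.28, adjusted p = 0.000227). EXLB1 (BnaC01G0231200ZS), listed at 0 in 2 of 3 mock libraries, went from 89.6, 59.4 and 54.8 TPM to 191, 198 and 181 TPM (1.51, SE 0.24, adjusted p = 0.000976). Xyloglucan endotransglucosylases, which cut and rejoin wall polymers, were higher in 9 of 68 and lower in 6 (13.2% and 8.82%, median 0.02). XTH6 (BnaC03G0517900ZS) stood at 71.4 to 89.7 TPM in mock, at 20.8, 27.3 and 28.3 TPM at 4 h and at 5.6, 4.23 and 2.58 TPM at 8 h (-2.40, SE 0.21, adjusted p = 2.36e-05). XTH31 (BnaA06G0187200ZS) stood at 7.71 to 9.2 TPM in mock, at 40, 35.7 and 34.6 TPM at 4 h and at 87.4, 97.8 and 84.1 TPM (1.26, SE 0.13, adjusted p = 6.15e-05). Pectin methylesterases and their inhibitors were higher in 19 of 121 genes and lower in 9, or 13 and 14 with median-of-ratios rescaling, with 11 higher and 4 lower without 4 h replicate 2 and 5 lower without 8 h replicate 1. Pectin methylesterase shares were 15.7% higher and 7.44% lower. Class III peroxidases, which crosslink walls, were higher in 15 of 91 and lower in 5 (median 0.17), or 11 and 7 with median-of-ratios rescaling. Their shares were 16.5% and 5.49%, the latter near the 5.05% of all genes. Germin-like proteins of the wall were higher in 6 of 34 and lower in 2 (17.6% and 5.88%). GER1 (BnaA07G0334400ZS), at 636 to 763 TPM in mock, stood at 12.7, 9.27 and 18.7 TPM at 4 h and at 38.9, 34 and 31.4 TPM at 8 h (1.34, SE 0.25, adjusted p = 0.00285).

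Surface lipid genes that were called were mainly higher. Genes for waxes and very-long-chain fatty acids, the material of the waterproof cuticle, were higher in 31 of 128 tested and lower in 6 (median 0.10), against 10.3% and 5.05% over all genes. CUT1 (the condensing enzyme CER6) was higher in 5 of 6 copies and summed to 246, 250.4 and 240.2 TPM at 4 h and 332, 388 and 311 TPM at 8 h. The wax ester synthase WSD1 was higher in 3 of 7 and the reductase KCR1 in 2 of 4. CYP96A15, an alkane hydroxylase of wax synthesis, went the other way in 3 of 20 copies, BnaC09G0200300ZS from 4.87, 8.18 and 7.57 TPM to 1.29, 1.35 and 0.77 TPM (-1.87, SE 0.21, adjusted p = 0.00012). With median-of-ratios rescaling the list counted 18 higher and 8 lower. Leaving out a library gave 16 to 30 higher, 16 without 8 h replicate 2, and 2 to 4 lower, 2 without 4 h replicate 3 or 8 h replicate 1 and 3 without 4 h replicate 1 or 8 h replicate 3. Lipid-transfer proteins, small secreted proteins that bind lipids, were higher in 19 of 99 genes and lower in 3 (median 0.20), or 16 and 6 with median-of-ratios rescaling. LTP3 was higher in 6 of 7 copies and both LTP4 genes were higher. The LTP3 copies summed to 4407, 3919 and 4091 TPM at 4 h and 8989, 9918 and 8009 TPM at 8 h, and those of LTP4 to 3574, 3281 and 3347 TPM and 7594, 8436 and 6517 TPM. An LTP3 gene without a chromosome went from 551, 489 and 466 TPM to 1483, 1651 and 1204 TPM (1.52, SE 0.22, adjusted p = 0.00057), with 9.14 to 15.1 TPM in mock. The times did not overlap in any of these sums.

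Photosynthesis genes differed between carbon fixation and light capture. Genes for Rubisco small subunit and Rubisco activase were lower in 8 of 26 and higher in 1 (median -0.40). Their sum stood at 77982 to 84090.2 TPM in mock, at 36476, 36513 and 36869 TPM at 4 h and at 30237, 28696 and 26006 TPM at 8 h. RBCS (BnaC04G0381200ZS), for the small subunit, went from 6630.4, 6613 and 6904 TPM to 4459, 4073 and 3806 TPM (-0.71, SE 0.10, adjusted p = 0.000341), a call kept in 12 of 15 settings. Activase genes (RCA) were lower in 6 of 12. Light-harvesting genes were higher in 6 of 69 and lower in 4 (median 0.02), or 1 and 6 with median-of-ratios rescaling, with 3 higher without 4 h replicate 2 or 3, 2 without 8 h replicate 1 and 1 without 8 h replicate 2, and their sums overlapped (56441 to 59807 TPM at 4 h and 54263 to 59279.7 TPM at 8 h). Photosystem subunits were lower in 8 of 114 and higher in 4 (median -0.03). Their shares were 7.02% and 3.51%, beside 5.05% lower and 10.3% higher over all genes. Light-harvesting genes, at 5.8% lower and 8.7% higher, were near both. For photosystem subunits median-of-ratios rescaling gave 14 lower and 2 higher, and quantile normalisation gave 3 lower and 6 higher. The 8 photosystem genes called lower became 5 without 4 h replicate 1 or 3 or any of the 8 h libraries. Genes for chloroplast ribosomal proteins were lower in 28 of 165 and higher in 5 (median -0.10), with 2 to 4 higher when a library was left out (2 without 8 h replicate 2 or 3, 3 without any of the 4 h libraries). RPL15 (BnaC07G0293300ZS) among them went from 54.1, 61.1 and 56 TPM to 26.9, 26.8 and 23.3 TPM (-1.13, SE 0.15, adjusted p = 0.000327).

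Cytosolic ribosomal protein genes had a higher median and few lower calls. Of 871 tested genes 98 were higher and 4 lower (median 0.24, beside 0.071 over all genes), which is 11.3% higher, near the 10.3% of all genes, and 0.459% lower, beside 5.05%. With median-of-ratios rescaling 48 were higher and 8 lower, with a median of 0.13, and leaving out any of the 6 libraries gave 44 to 61 higher. The list summed to 24643, 24231 and 25778 TPM at 4 h and 28944, 28716 and 28964 TPM at 8 h, with 49413 to 58452 TPM in mock.

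Nitrogen assimilation genes that were called were mainly lower. Of 42 tested genes 13 were lower and 2 higher (median -0.13). Both copies of NIA1 and 2 of 3 of NIA2 (nitrate reductases), both of the cytosolic glutamine synthetase GLN1-1 and 4 of 7 of the chloroplast GLN2 were lower. NIA1 (BnaA07G0369900ZS) stood at 51.5 to 72.6 TPM in mock, at 31.7, 29.2 and 23.1 TPM at 4 h and at 9.7, 9.59 and 8.44 TPM at 8 h (-1.49, SE 0.15, adjusted p = 4.2e-05). NIA2 (BnaA07G0237900ZS) went from 13.5, 12.6 and 8.7 TPM to 4.38, 4.24 and 3.79 TPM (-1.28, SE 0.20, adjusted p = 0.000862). GLN2 summed to 1493, 1515 and 1449 TPM at 4 h and 1033, 1047 and 959 TPM at 8 h.

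Histone genes that were called were nearly all lower. Of 129 tested core histone genes 52 were lower and 4 higher (median -0.40). The lower genes included the kinds made during DNA replication: all 4 genes of H3.1, 7 of 8 of H3.2 and 13 of 28 of H4. H3.3, the replacement form used outside replication, was lower in none of 12 copies and higher in 2. H3.1 and H3.2 genes, both under the symbol HTR2, summed to 205 to 215 TPM and 191 to 216 TPM at 4 h and to 83.6 to 101 TPM and 79.7 to 95.2 TPM at 8 h. H3.3 (HTR4) summed to 1353, 1307 and 1355 TPM and to 1211, 1273 and 1331 TPM, which overlapped. H2B-3 (BnaA03G0096600ZS) went from 19.4, 22.1 and 16.6 TPM to 4.55, 4.89 and 5.83 TPM (-1.74, SE 0.24, adjusted p = 0.00045). Cyclins, regulators of cell division, were lower in 13 of 99 and higher in 4 (median -0.07), with 8 lower without 8 h replicate 1. Of the shoot meristem markers none of 9 tested was called, and they summed to 29.6 to 35.4 TPM at 4 h and 38.4 to 42.1 TPM at 8 h.

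**Figure D4:**
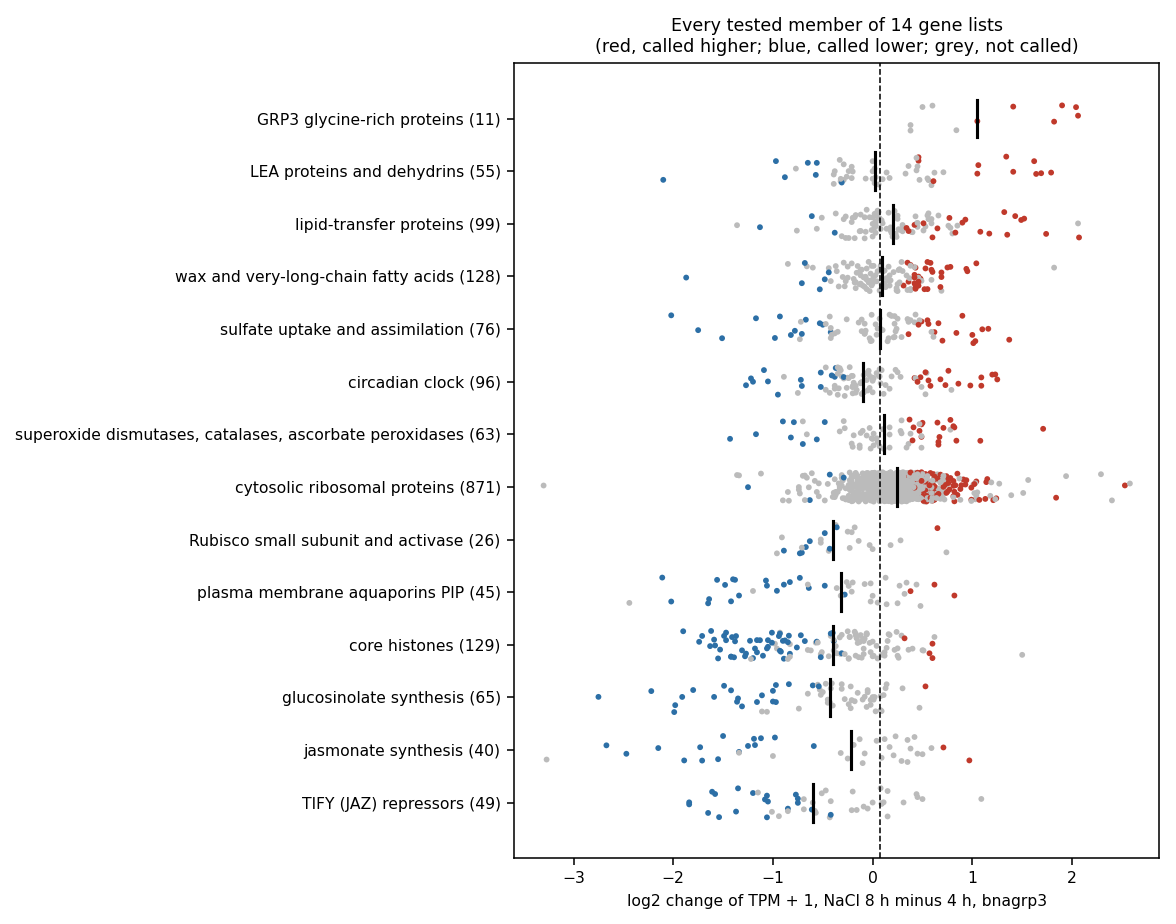
Log2 change of every tested member of 14 gene lists, with red for members called higher, blue for those called lower and grey for the rest. Solid bars mark each list's median and the dashed line the median of all genes, 0.071. Histones, glucosinolate, jasmonate and TIFY genes extend to the left of it, while LEA, sulfate, clock and superoxide dismutase lists hold called members on both sides.

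Clock genes changed in both directions. Over the list 16 of 96 tested genes were higher and 14 lower (median -0.10), or 14 and 18 with median-of-ratios rescaling. The genes called higher included some known to peak late in the day or in the evening: APRR1 (TOC1) in 3 of 4 copies, ELF4 in 3 of 4, APRR5 in 4 of 7 and GI in both. CCA1, which peaks at dawn, was lower in both copies, as were LNK4 in both and LNK3 in 2 of 4. Other genes of these hours were mostly not called: none of 5 copies of the dawn gene LHY, none of 5 of ELF3 and 1 of 5 of LUX, which was higher (73.5, 53.5 and 55.4 TPM summed at 4 h and 73.2, 69.3 and 86.7 TPM at 8 h, which overlapped). APRR1 (BnaC09G0066100ZS) went from 12.4, 8.59 and 12.2 TPM to 26.8, 25 and 29.6 TPM (1.23, SE 0.20, adjusted p = 0.00123). LNK4 (BnaA10G0258200ZS) went from 37.7, 35.4 and 31.2 TPM to 14.2, 11 and 16.5 TPM (-1.27, SE 0.14, adjusted p = 8.6e-05). CCA1 summed to 28.1, 27.3 and 23.7 TPM at 4 h and 14.3, 8.4 and 12.5 TPM at 8 h. Groups did not overlap in these 3, and with no mock of the same hour the hours of salt and of the day cannot be told apart in them or in any other gene here.

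Ion transport genes were called in shares near or under those of all genes (7.5% higher and 3.75% lower, beside 10.3% and 5.05%). Of 80 tested genes for sodium and potassium transporters 6 were higher, 3 lower and 71 not called (median 0.07), and the direction turned to none higher and 9 lower with either median-of-ratios or quantile rescaling. Leaving out any of the 6 libraries gave 1 to 3 higher. None of the 4 copies of NHX1 (vacuolar sodium/proton exchanger) was called, nor any of 4 of NHX7 (SOS1, the plasma membrane exchanger), at 53.2, 45.6 and 46.6 TPM summed at 4 h and 54.2, 56.6 and 56.2 TPM at 8 h. HKT1 (BnaA03G0254300ZS), which takes sodium back out of the xylem sap, was lower, from 6.88, 5.83 and 6.07 TPM to 3.41, 3.03 and 2.59 TPM (-0.86, SE 0.15, adjusted p = 0.0021), with 0.2 to 0.38 TPM in mock. CBL calcium sensors and CIPK kinases were higher in 12 of 100 genes and lower in 9 (12% and 9%, beside 10.3% and 5.05%). Median-of-ratios rescaling gave 5 and 13. The 12 became 5, 6, 3 and 7 without 4 h replicates 2 and 3 and 8 h replicates 1 and 3. CIPK5 (BnaC09G0547200ZS) went from 6.91, 6.82 and 4.64 TPM to 22.2, 23.8 and 18.9 TPM (1.68, SE 0.20, adjusted p = 0.000131), and all 4 copies of CIPK9, a kinase of potassium nutrition, were lower. Calcium-dependent protein kinases were higher in 9 of 86 (10.5%, near the 10.3% of all genes) and lower in none, or 5 and 1 with median-of-ratios rescaling. Without 4 h replicate 2 or 8 h replicate 3, 5 were higher.

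Regulators and recycling genes gave smaller groups. NAC factors were lower in 11 of 199 genes and higher in 5 (median -0.06). These shares, 5.53% and 2.51%, lay near and under the 5.05% and 10.3% of all genes. Median-of-ratios rescaling gave 21 lower and 3 higher. There were 7 lower without 4 h replicate 1 or 3, and 3 higher without 4 h replicate 2 or 8 h replicate 3. Of the 11 lower genes 5 were copies of NAC083 (VNI2), a repressor of xylem vessel formation that also responds to ABA. NAC083 (BnaA03G0052300ZS) went from 89.3, 100.3 and 97.2 TPM to 40.2, 32.4 and 33.4 TPM (-1.42, SE 0.19, adjusted p = 0.000358). Xylem markers were higher over the same interval, and their part in this was not tested. WRKY factors were lower in 12 of 149 and higher in 5 (8.05% and 3.36%), or 19 and 2 with median-of-ratios rescaling. Leaving out a library gave 4 to 10 WRKY genes lower (4 without 4 h replicate 3 or 8 h replicate 2, 5 without 8 h replicate 1 and 7 without 4 h replicate 1 or 8 h replicate 3) and 1 to 5 higher (1, 3 and 2 without 4 h replicate 2, 8 h replicate 1 and 8 h replicate 2). ERF factors were lower in 23 of 225 and higher in 20 (10.2% and 8.89%), or 30 and 11 with median-of-ratios rescaling. Leaving out a library gave 11 to 19 ERF genes lower (15, 13 and 11 without 4 h replicates 1 and 2 and 8 h replicate 2) and 9 to 14 higher, 9 without 4 h replicate 2 or either of 8 h replicates 1 and 2, 11 without 4 h replicate 3 and 13 without 4 h replicate 1. ERF104 (BnaC07G0383600ZS) went from 18.1, 12.6 and 11.7 TPM to 5.09, 2.84 and 6.52 TPM (-1.41, SE 0.23, adjusted p = 0.00128), and SHN3 (BnaC07G0358200ZS), an activator of cuticle genes, from 1.61, 0.99 and 2.1 TPM to 6.22, 5.55 and 5.88 TPM (1.45, SE 0.24, adjusted p = 0.00123). Autophagy genes, which recycle cell contents, were lower in 20 of 127 and higher in none (median -0.15), or 33 and none with median-of-ratios rescaling. The 20 became 7 to 14 when a library was left out, with 7 without 4 h replicate 1, 8 without 4 h replicate 3 or 8 h replicate 2, 9 without 8 h replicate 1 and 12 without 8 h replicate 3. ATG11 (BnaC07G0500100ZS) went from 6.96, 7.18 and 8.75 TPM to 2.24, 2.25 and 2.7 TPM (-1.34, SE 0.22, adjusted p = 0.00125). The autophagy list summed to 744 to 928 TPM in mock, 2182 to 2405 TPM at 4 h and 1961 to 2002 TPM at 8 h. PXG3, a caleosin of lipid droplets induced by ABA and drought, was lower in 4 of 6 copies and summed to 2146, 2618 and 2463 TPM at 4 h and 1153, 1168 and 1146 TPM at 8 h. Senescence markers were mixed: SAG12 was higher in 2 of 6 copies, BnaC02G0403500ZS from 0.54, 0.41 and 1.28 TPM to 7.61, 6.5 and 4.39 TPM (2.05, SE 0.22, adjusted p = 8.25e-05), while both genes of RCCR, an enzyme of chlorophyll breakdown, were lower. Cytokinin genes were lower in 13 of 61 and higher in 2 (median -0.20), ARR4 (BnaC08G0202000ZS), which cytokinin induces, from 9.4, 7.94 and 8.78 TPM to 2.28, 1.57 and 1.87 TPM (-1.74, SE 0.19, adjusted p = 7.36e-05).

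Heat shock proteins were higher in 24 of 133 tested genes and lower in 9 (median 0.14). With median-of-ratios rescaling 21 were higher and 13 lower. The genes called higher included organelle chaperones: all 4 copies of HSP70-9 and 3 of 4 of HSP70-10, both mitochondrial, and 2 of 3 of HSP90-6. HSP70-9 summed to 8.45, 10 and 11 TPM at 4 h and 22.8, 24.3 and 21.4 TPM at 8 h. HSP90-6 (BnaA01G0427700ZS) stood at 14.8 to 18.3 TPM in mock, at 1.97, 3.16 and 2.6 TPM at 4 h and at 7.11, 8.63 and 7.58 TPM at 8 h (1.30, SE 0.19, adjusted p = 0.000642). Cytosolic forms went both ways: HSP90-2 was higher in 4 of 11 copies (228, 209 and 223 TPM summed at 4 h and 295, 296 and 271 TPM at 8 h), and HSP70-1 was lower in 3 of 12.

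The other gene lists held few calls or calls in both directions, and over all genes 10.3% were higher and 5.05% lower. Among those under both shares were SAUR genes (2.36% and 0%), DREB and CBF factors (6.25% and 0%) and respiratory burst oxidases (9.09% and 0%). Lower calls lay farthest above 5.05% in caleosins (30.8%), asparagine synthetase and branched-chain breakdown (21.2%), polyamine metabolism (16.9%) and phenylpropanoid genes (12.5%). KIN, COR15 and LTI proteins were higher in 6 of 44 and lower in 2 (5 and 3 with median-of-ratios rescaling), and SnRK2 kinases with ABF or ABI5 factors, which carry the ABA signal, were higher in 4 of 52 and lower in 3, or 1 and 3 with median-of-ratios rescaling. SWEET and sucrose transporters were higher in 6 of 51 and lower in 2, or 4 and 5 with the same rescaling. Shares higher and lower were 13.6% and 4.55% for the KIN list, 7.69% and 5.77% for the SnRK2 list and 11.8% and 3.92% for the SWEET list. Chlorophyll synthesis genes were higher in 6 of 49 and lower in 1 (4 and 2 rescaled), and genes of chlorophyll breakdown and senescence higher in 8 of 57 and lower in 6, or 4 and 9 rescaled. Of the latter 5 were higher without 8 h replicate 1, 2 lower without 4 h replicate 3 or 8 h replicate 2, and 3 lower without 4 h replicate 1 or 8 h replicate 1 or 3. Among hormone genes, ethylene synthesis was higher in 1 of 26 and lower in 3, Aux/IAA repressors of auxin signalling were higher in 5 of 88 and lower in 5 (2 and 7 rescaled, 3 higher without 4 h replicate 2, and 1 to 3 lower whichever of the 6 libraries was left out), SAUR genes higher in 3 of 127 and lower in none, and none of 17 gibberellin oxidases was called. DREB and CBF factors were higher in 1 of 16 and lower in none, or none and 2 rescaled, and heat stress factors higher in 5 of 71 and lower in 5, or 3 and 8 rescaled. Leaving out a library gave 2 to 4 heat stress factors higher (2 without 4 h replicate 3 or 8 h replicate 1, 3 without 4 h replicate 2 or 8 h replicate 2 or 3) and, whichever it was, 2 or 3 lower. Phenylpropanoid and lignin genes were lower in 16 of 128 and higher in 12, or 18 and 3 rescaled. Leaving out a library gave 10 to 15 lower (10 without 4 h replicate 2 or 8 h replicate 1 or 2) and 3 to 8 higher (3 without 4 h replicate 2 or 8 h replicate 3, 4 without 8 h replicate 1, 5 without 4 h replicate 3 and 7 without 8 h replicate 2). Flavonoid genes were lower in 3 of 42 and higher in 3 (7.14% each way), or 5 and 2 rescaled. Aux/IAA repressors stood at 5.68% each way and heat stress factors at 7.04%. Chlorophyll synthesis genes were 12.2% higher and 2.04% lower, chlorophyll breakdown and senescence genes 14% and 10.5%, and ethylene synthesis genes 3.85% and 11.5%. Genes of polyamine metabolism were lower in 10 of 59 and higher in 8, or 14 and 2 rescaled, with 2 to 5 higher when any of the 6 libraries was left out. Genes for asparagine synthetase and branched-chain amino acid breakdown were lower in 7 of 33 (4 without 8 h replicate 2) and higher in 2, caleosins lower in 4 of 13 and higher in none, and respiratory burst oxidases higher in 1 of 11 and lower in none. Of the remaining marker lists, guard cell markers summed to 122 to 133 TPM at 4 h and 106 to 115 TPM at 8 h (1 of 29 higher and 3 lower), phloem markers to 352 to 366 and 341 to 356 TPM (1 of 23 higher), and trichome and epidermis markers to 109 to 126 and 115 to 119 TPM (1 of 13 higher).

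Among all named genes with a mean of at least 10 TPM, several of the largest changes fell outside these lists. BCAT2 (BnaC08G0522200ZS), a branched-chain amino acid aminotransferase, was listed at 0 in mock and went from 4.29, 4.17 and 3.88 TPM to 28.1, 36.6 and 31.4 TPM (2.68, SE 0.18, adjusted p = 3.13e-06). HIPP22 (BnaC07G0176500ZS), a metal-binding protein, went from 4.68, 2.13 and 4.25 TPM to 26.7, 27.8 and 21.5 TPM (2.53, SE 0.24, adjusted p = 3.26e-05). GRXS11 (Bnascaffold0026G0072400ZS), a glutaredoxin, went from 24.3, 29.1 and 26.2 TPM to 1.09, 0 and 0 TPM, with 83.8 to 119.7 TPM in mock. CH25 (BnaA03G0328200ZS), an endochitinase, went from 130.0, 368 and 264 TPM to 20.9, 22.1 and 29.6 TPM (-3.23, SE 0.38, adjusted p = 0.000141), again with 4 h replicate 1 the lowest of its group. Other genes at the head of the ranking were listed at 0 in whole groups: NSA2 (BnaC06G0372000ZS) at 0 in all 4 h libraries and 31.1, 7.74 and 14.8 TPM at 8 h (called in 8 of 15 settings), and TOM6 (BnaA08G0032600ZS) at 20.6, 21.1 and 58.9 TPM at 4 h and 0 in all 8 h libraries. The mock libraries of TOM6 spanned 0, 20.9 and 105 TPM, a range wider than at 4 h.

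The same interval in WT, with no library in common, gave 8541 called genes (14.7%), 5209 higher (8.99%) and 3332 lower (5.75%). Without WT 4 h replicate 2 and WT 8 h replicate 3, WT gave 5205 calls (3025 higher and 2180 lower) and bnagrp3 10155 (6755 and 3400), in a fit with fewer libraries. Of the genes called in bnagrp3, 94.1% had the same sign in WT, and 4706 were called in both with the same sign, which is 53.1% of the bnagrp3 calls and 55.1% of the WT calls. A further 18 were called with opposite signs. Without the pair of WT libraries the same counts were 91.7%, 3392 genes (33.4% and 65.2%) and 24. Across the genes called in bnagrp3 the Pearson correlation of the log2 changes of the genotypes was 0.844, and across all tested genes it was 0.479 (0.791 and 0.437 without the pair), as a description over genes, which are not independent replicates. The median SD of a gene within a group was 0.143 at 4 h and 0.138 at 8 h in bnagrp3 (log2 scale) and 0.204 and 0.18 in WT. Without the pair it was 0.133 and 0.135 in WT, from 2 libraries at each time. A median SD from 2 libraries tends to be lower than from 3, so these values do not show whether the larger WT values rest on that pair. The list directions were also found in WT for TIFY repressors (none higher and 21 lower of 49), histones (4 and 56 of 129), glucosinolate synthesis (none and 22 of 65) and PIP aquaporins (1 and 24 of 45). Without the pair the WT counts were none and 15, none and 49, none and 11, and none and 20. Jasmonate synthesis genes counted 5 higher and 15 lower of 40 in WT, or 4 and 13 without the pair. In WT they summed to 522, 1517 and 747 TPM at 4 h and 419, 431 and 515 TPM at 8 h. The highest of these was WT 4 h replicate 2, 1 of the libraries in doubt. Wax genes, at 31 higher and 6 lower in bnagrp3, counted 10 and 10 in WT, and cytosolic ribosomal protein genes, at 98 and 4, counted 30 and 10. Without the pair the wax counts were 32 and 5 in bnagrp3 and 4 and 4 in WT, and the ribosomal counts 106 and 5 and 14 and 8. No member of any list was called for a genotype difference.

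The difference itself, tested as an interaction, was called for 4 of 57923 genes (0.00691%), with 4426 at an unadjusted p under 0.05, and for 21 genes without the pair of WT libraries. BnaA10G0206800ZS, with no protein name, stood at 54.7, 53.7 and 48.9 TPM at 4 h and 83.1, 83 and 84.8 TPM at 8 h in bnagrp3, and at 52.1, 55.3 and 60.5 TPM and 53.2, 46.5 and 53.7 TPM in WT. The difference of the log2 changes was 0.79 (SE 0.10, adjusted p = 0.0357), and 0.84 without the pair of WT libraries (SE 0.12, adjusted p = 0.0333). It was called higher in bnagrp3 (0.66, adjusted p = 9.17e-05) and not called in WT (-0.13, adjusted p = 0.281). BRK1 (BnaC08G0442600ZS), a subunit of an actin regulator, was listed at 0 in the 3 bnagrp3 libraries at 4 h and at 3.27, 3.11 and 3.01 TPM at 8 h, and in WT at 2.73, 5.68 and 4.71 TPM at 4 h and at 0 in all 3 at 8 h. Without the pair it was not called (adjusted p = 0.0716). The remaining 2 were listed at 0 in all bnagrp3 libraries of both times and stood lower at 8 h than at 4 h in WT, and without the pair BnaC02G0480600ZS was called (adjusted p = 0.000568) and the other, an unplaced model, was not (adjusted p = 0.0548).

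**Figure D5:**
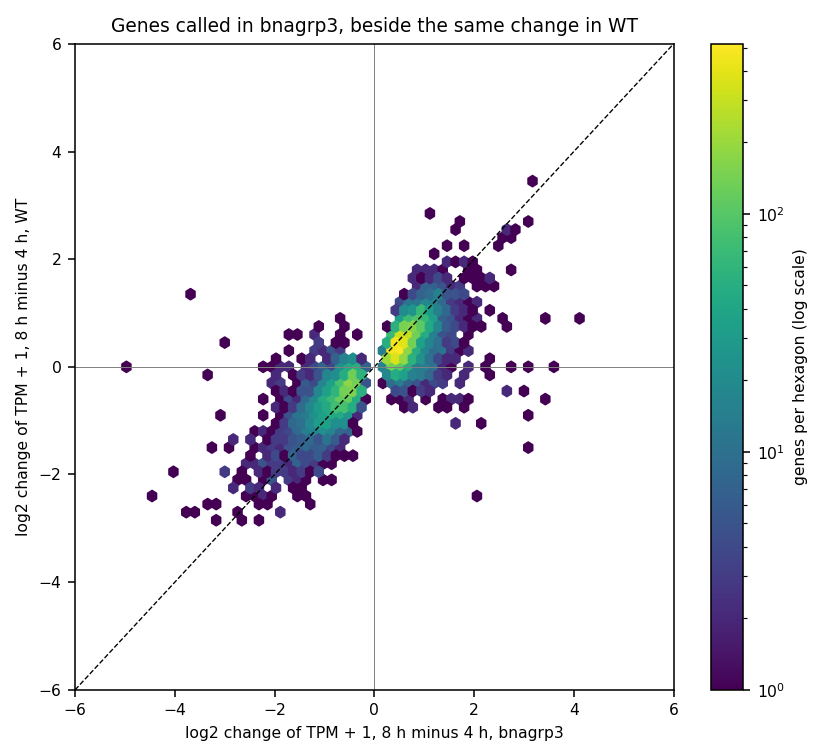
Log2 change from 4 h to 8 h of NaCl in bnagrp3 (horizontal axis) and in WT (vertical axis) for the 8863 genes called in bnagrp3, as counts of genes per hexagon on a log colour scale. The dashed line marks equal change, and most genes lie in the quadrants of equal sign (94.1%).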

How the data were processed

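Poly(A) RNA-seq libraries of Brassica napus shoots were analysed from the authors' gene-level TPM values, deposited for 108207 genes. Per the submitters' processing notes, the tools were fastp, HISAT2 and featureCounts. Versions, build, annotation and strandedness: not given in the sources used here. TPM as deposited per the file headers holds no counts, so no count model, depth or counting interval was used. Values were analysed as log2(TPM + 1) without rescaling. Genes with at least 1 TPM in at least 3 of the 18 libraries (57923) were fitted with limma 3.58.1 in R 4.3.3, with 1 mean for each of the 6 groups, all 18 libraries, an intensity trend, two-sided tests and Benjamini-Hochberg adjustment. The procedure was tested on simulated data. Groups were taken from the labels.

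The comparison, the 62 gene lists and the rule for naming genes were chosen with earlier results of these data known. Lists were matched by product name (or also by symbol, as an alternative), and got counts and medians but no test. Named from each list were the called genes that rose most and that fell most, up to 3 each way, if their libraries did not overlap and a mean reached 5 TPM; over all genes, the 10 largest rises and falls with a mean of at least 10 TPM and a protein description; every GRP3 gene tested; and genes called for the genotype difference with a mean of at least 10 TPM in a bnagrp3 NaCl group. BnaC02G0480600ZS, BRK1 and an unplaced model, also called for that difference, fall outside the rule and were named after their values were seen, as were the families described by summed copies. Some genes the rule names were left out. Of the tested genes 648 (1.12%) had the same values as another gene in all 18 libraries. No libraries were identical.

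Replicates with the same number were not paired: the correlations of their deviations from the group means were 0.003, -0.035 and -0.017. Alternatives were median-of-ratios and quantile rescaling, filtering at 5 TPM or not at all, a pseudocount of 0.1, a replicate block, fits of fewer libraries, a further threshold of 1 log2 unit and leaving out each library. Leaving out WT 4 h replicate 2 and WT 8 h replicate 3 was chosen after seeing the data. Figures were drawn with matplotlib 3.10.9.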

Additional observations from a re-analysis of the deposited data

Results flagged for a closer look

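The change from 4 h to 8 h differed between bnagrp3 and WT, by the interaction test in limma, for 4 genes. Each value is the log2 change in bnagrp3 minus that in WT. For BnaA10G0206800ZS the difference was 0.79 (adjusted p = 0.0357). Its 3 bnagrp3 libraries at 8 h lay above the 3 at 4 h, and the times overlapped in WT. For BRK1 (BnaC08G0442600ZS) it was 4.43 (adjusted p = 0.0357), between libraries listed at 0 in one group of each genotype. For BnaC02G0480600ZS it was 4.75 (adjusted p = 4.52e-05): the gene was listed at 0 in all bnagrp3 libraries and in WT at 18.5, 19.9 and 46.7 TPM at 4 h and 0 in all 3 at 8 h. For an unplaced gene model without a protein name it was 1.23 (adjusted p = 0.0357), with 0 in all bnagrp3 libraries and 10.5, 8.68 and 8.31 TPM at 4 h and 3.67, 3.23 and 3.09 TPM at 8 h in WT. Without WT 4 h replicate 2 and WT 8 h replicate 3 the adjusted p was 0.0333, 0.0716, 0.000568 and 0.0548 in this order, so BRK1 and the unplaced model were then not called. Differences that involve a group at 0 depend on the pseudocount and are no estimate of a fold.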

How the results depend on the processing

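The count of genes called in bnagrp3 (8863) lay between 7298 and 11208 under the other pseudocount, filters, scalings, smaller fits and the replicate block (8541 with the block), and was 1310 with a further threshold of 1 log2 unit (629 higher and 681 lower). Leaving out a bnagrp3 library gave 5466 to 6785 calls, with the count down over 1.5-fold without 4 h replicate 2 (5644), 8 h replicate 1 (5837) and 8 h replicate 2 (5466). Genes called higher ranged from 3619 to 4556 (3647, 3826 and 3619 without these 3) and lower from 1847 to 2229 (1912 without 4 h replicate 3, 1847 without 8 h replicate 2), and rescaling gave 3529 higher (median-of-ratios) and 3896 (quantile). The WT count (8541) was 1848 in a fit of its 6 libraries alone, 5205 without WT 4 h replicate 2 and WT 8 h replicate 3, 1193 with at least 1 log2 unit, and 5704 to 9246 without single libraries. The genotype difference (4 genes) was called for 26 without the filter, 2 with a filter of 5 TPM, 2 with median-of-ratios, 1 with quantile normalisation, 2 with the replicate block, 21 without the pair of WT libraries, and 1 to 26 without single libraries, with 26 and 20 without WT 4 h replicates 1 and 2, 13 and 12 without WT 8 h replicates 2 and 3, 2 without bnagrp3 8 h replicate 2, and 1 without bnagrp3 4 h replicate 3, bnagrp3 8 h replicate 1, WT 4 h replicate 3 or WT 8 h replicate 1. The causes were not tested. The block changed calls of 12 of the 302 named genes called, and the numbers do not pair the libraries. Of 4630 values of named genes under alternatives 4068 kept direction and side of the threshold, 559 kept direction and lost the call, 3 gained it and none reversed. Read depth is unknown, so what it limits cannot be stated.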
